A study of Brassica napus with 9 samples.

Results

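Leaf transcripts of Brassica napus that fall outside the annotated gene models were followed under drought and under drought with fullerol, a water-soluble carbon nanoparticle. The deposited expression tables list such loci under identifiers of the form Novel01182, beside annotated genes whose identifiers start with Bna. A locus was taken when its FPKM (fragments normalized for transcript length in kilobases and for the library total) was above 1 in at least 3 of the 9 libraries. The rule kept 2624 of the 3552 loci so named, or 73.9%, and the same filter kept 48002 of the 101040 Bna genes, or 47.5%. Together these 50626 rows were tested.

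The plants were wild type seedlings of the cultivar Zhongshuang 11, and RNA came from the third leaf. CK plants were kept well watered at 80% field capacity, D plants were droughted to 30% field capacity, and D + F plants were droughted in the same way and had their leaves sprayed with 100 mg/L fullerol, whereas CK and D leaves were sprayed with water. Each group had 3 libraries described as biological replicates, and each was made from whole leaf tissue, so that fewer cells of a type and less RNA per cell cannot be told apart. Leaf marker genes were not checked, because the gene names that the sources used here pair with identifiers belong to genes the study discusses as differentially expressed.

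Loci of this kind arise when aligned reads are assembled into transcribed regions and those regions are set against the gene models of a reference. They can be protein-coding genes that an annotation missed, extended untranslated ends of known genes, or non-coding and antisense RNAs. Brassica napus carries the A and C subgenomes of its parents, so that reads of near-identical copies can be divided between loci by the counting, and values of such copies are uncertain. Positions, strands and sequences of these loci were not used here, and how they were assembled was not given in the sources used here. No function is attached below to any locus beyond the metabolic pathway under which the study's files list it.

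The deposited digits gave back whole reads and transcript lengths. The 9 library totals were 21939148 to 26042002 read pairs, and 100% of 589222 values above 0 lay within 0.01 reads of a whole number. Each length was the shortest at which all values of the row lay so close, so that the 100% followed from the search. Such a length was found for 76351 of the 76352 rows above 0 in any library. The 2624 loci had a median length of 980.5 bases, with a range of 192 to 10077, against a median of 1017 bases for the Bna genes tested. Only 34.9% of the locus lengths were multiples of 3, close to 1 in 3, against 99.4% of the Bna lengths, which are therefore coding lengths. The median locus had 89.4 reads per library and the median Bna gene 163.2.

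Most of the loci were weakly expressed. Their mean FPKM over the 9 libraries had a median of 3.68, against 6.51 for the Bna genes, and 723 loci stayed below a mean of 2 FPKM. A further 902 loci lay between 2 and 5 FPKM, 493 between 5 and 10, 441 between 10 and 50, and 46 between 50 and 100. The remaining 19 had a mean of 100 FPKM or more. The loci therefore held a small share of all expression. Summed FPKM on them was 2.12 ± 0.15% of the library in CK, 1.99 ± 0.11% in D and 2.09 ± 0.17% under D + F (SD, n = 3), and the libraries of the 3 groups overlapped, with a range of 1.88 to 2.29%.

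**Figure D1:**
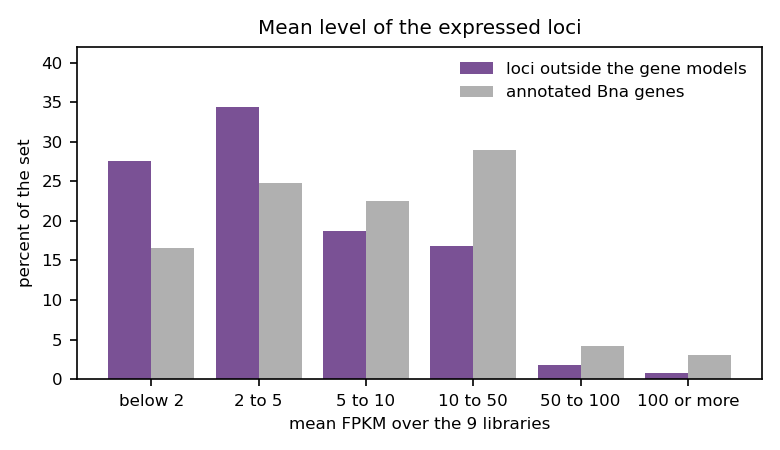
Percent of the 2624 loci outside the gene models and of the 48002 Bna genes in each class of mean FPKM over the 9 libraries. The loci lay more in the lower classes, with 27.6% below 2 FPKM against 16.5% of the Bna genes.

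Detection was broad. Of the loci, 1772 (67.5%) were above 1 FPKM in all 9 libraries, against 79.2% of the Bna genes. The number above 1 FPKM was 2242, 2274 and 2330 in the CK libraries, 2296, 2254 and 2314 in the D libraries and 2325, 2412 and 2403 in the D + F libraries. The CK and D counts overlapped, and the D + F library with the fewest detected loci lay just below the CK library with the most. Among the Bna genes the counts were 45456 to 45612 in CK, 43779 to 44516 in D and 44928 to 46389 under D + F, so that no D library reached the lowest CK count there. Few loci were confined to one condition. Above 1 FPKM in every CK library and in no other were 33 loci (1.26%, against 1.32% of the Bna genes). Another 33 loci (1.26%, against 0.879% of the Bna genes) were above 1 FPKM in all 6 droughted libraries and in no CK library.

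Across the loci, libraries of 1 group resembled each other more than libraries of CK and the droughted groups did. The correlation of log2(FPKM + 1) across the 2624 loci was 0.886 to 0.952 within CK, 0.926 to 0.941 within D and 0.880 to 0.931 within D + F. Between CK and D libraries it was 0.735 to 0.813, between CK and D + F 0.751 to 0.852, and between D and D + F 0.868 to 0.937. The range between the 2 droughted groups overlapped the range within each of them. These correlations are over loci of the same libraries, which are not independent replicates, and are given as a description. The p-values below set a difference between group means against the spread between the libraries of a group.

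The most abundant locus was Novel01182, of 1542 bases. Its FPKM was 1810, 2163 and 1344 in CK, 1566, 1958 and 1502 in D and 2108, 1552 and 1057 under D + F. The groups overlapped, and it alone held 3.85 to 9.66% of the FPKM summed over all the loci in a library. No difference passed the test (limma, adjusted p = 0.894 in D vs. CK, with a log2 fold change of -0.06 ± 0.32, SE).

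Next in abundance came Novel03414 and Novel02402. Novel03414 had 380.2, 495.2 and 482.9 FPKM in CK, 336.9, 312.2 and 244.9 in D and 285.4, 297.6 and 364.5 in D + F. Every droughted library was below every CK library, but the D vs. CK difference of -0.60 ± 0.23 on the log2(FPKM + 1) scale did not pass the test (adjusted p = 0.0805). Novel02402 had 120.9, 170.8 and 231.7 FPKM in CK, 617.7, 597.6 and 370.8 in D and 393.2, 337.2 and 139.3 in D + F. It rose 3.03-fold in D (adjusted p = 0.00914), without overlap, while the D + F libraries overlapped both other groups.

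A further 3 loci of the top 10 did not pass any test. Novel00713 had 119.9 to 349 FPKM in CK, 247.5 to 303.5 in D and 244.9 to 349.9 in D + F. Novel00334 had 108.2 to 259.5, 109.5 to 182.3 and 134 to 294.6 FPKM in the same order. Novel00910 had the widest spread within groups, with 30.0 to 200.3, 97.9 to 229.2 and 85.95 to 383.9 FPKM. All groups overlapped for these loci.

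Novel01732, ranked ninth, fell. Its FPKM was 241.8, 271.9 and 356 in CK, 102.2, 105.7 and 71.8 in D and 149.2, 135.2 and 114.8 in D + F. The 3 groups did not overlap. It was 3.11-fold lower in D than in CK (adjusted p = 0.0029) and 2.18-fold lower in D + F than in CK (adjusted p = 0.0188), while D + F vs. D did not pass (log2 fold change 0.52 ± 0.20, adjusted p = 0.242). The D + F vs. CK call was lost without CK 2, D + F 2 or D + F 3. The other 3 of the top 10, Novel00709, Novel02452 and Novel03089, were loci of the drought response and are described next.

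Drought changed 583 of the 2624 loci (22.2%, limma on log2(FPKM + 1), Benjamini-Hochberg adjusted p below 0.05 over all 50626 rows tested), against 32.0% of all rows tested. Of them 260 were higher in D (9.91% of the loci, against 12.3% of all rows) and 323 were lower (12.3%, against 19.7% of all rows). The share of higher calls depended on the scaling between libraries. It was 44.6% of the calls with FPKM as deposited, 57.5% with median-of-ratios scaling and 61.2% with quantile normalization. Under median-of-ratios scaling the median change of all rows in D vs. CK moved from -0.10 to -0.01 on the log2 scale, and that of the loci from 0.01 to 0.10, so that the median of the loci lay above that of all rows with either scaling. The number of calls was 363 without the library CK 2 (13.8%, against 20.1% of the Bna genes). Without D 3 it was 376 (14.3%, against 20.6% of the Bna genes).

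**Figure D2:**
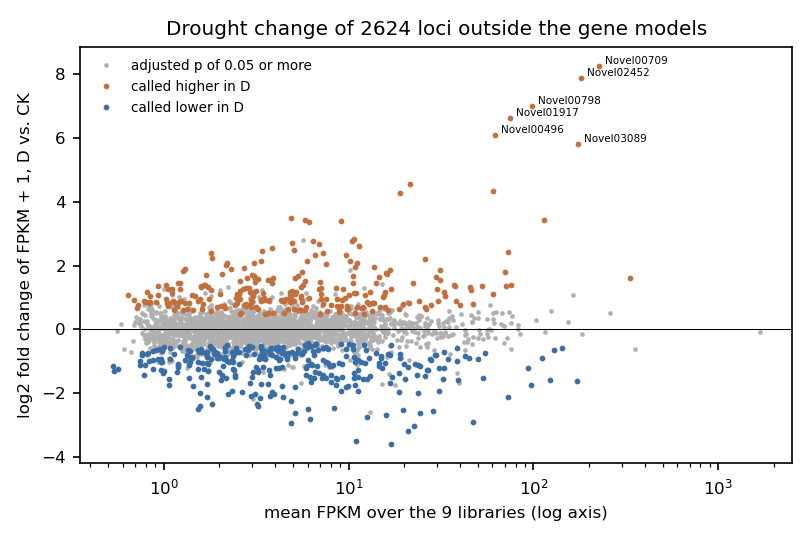
Log2 fold change of FPKM + 1 in D vs. CK (vertical axis) against mean FPKM over the 9 libraries (log axis) for the 2624 loci. Coloured points passed the limma test, with 260 higher and 323 lower in D, and the 6 largest rises are named.

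The 6 largest rises on the log2(FPKM + 1) scale were at loci with at most 4.52 FPKM in any CK library. Novel00709, of 1369 bases, had 1.14, 1.02 and 0.3995 FPKM in CK, 541.2, 476.9 and 676.3 in D and 169.5, 108.1 and 57.8 in D + F. No group overlapped another. Its mean was 662-fold higher in D than in CK (log2 fold change 8.26 ± 0.22, adjusted p = 9.31e-06), and its mean over all 9 libraries was the fifth highest of the loci.

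Novel02452, of 1426 bases, followed the same course. It had 0.6235, 0.325 and 1.41 FPKM in CK, 423.9, 349.4 and 463.9 in D and 180.6, 140.6 and 69.7 in D + F. Again the 3 groups stood apart. It was 525-fold higher in D than in CK (adjusted p = 1.17e-05) and 166-fold higher in D + F than in CK (adjusted p = 0.000423).

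Novel00496, of 767 bases, had 0.773, 1.21 and 1.78 FPKM in CK, 156.2, 143.2 and 151 in D and 76.2, 19.8 and 9.22 in D + F. The D libraries were close together and the D + F libraries spread widely, all of them between the other groups. The rise in D was 120-fold (adjusted p = 1.17e-05) and that in D + F vs. CK 27.9-fold (adjusted p = 0.0131, lost without the filter or CK 2).

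In a second set of strong rises the D + F libraries overlapped the D libraries. Novel00798, of 746 bases, had at most 2 reads in any CK library, at 0.0568, 0.113 and 0.0611 FPKM. It had 105.3, 173.4 and 141.1 FPKM in D and 103.7, 203.7 and 153 in D + F. Against a floor of 3 reads in each CK library this was at least 802-fold higher in D and at least 880-fold higher under D + F (adjusted p = 1.02e-05 and 5.13e-05), and D and D + F overlapped.

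Novel01917, of 683 bases, was also at the floor in CK, with 0.124, 0 and 0.0667 FPKM. Its FPKM was 71.0, 163.4 and 95.5 in D and 81.3, 154.3 and 106.2 in D + F, at least 577-fold and at least 598-fold above CK (adjusted p = 3.97e-05 and 5.46e-05). Novel00798 and Novel01917 shared the order of the libraries within D and within D + F, with D 2 and D + F 2 the highest.

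Novel03089, of 476 bases, had 1.78, 4.52 and 3.26 FPKM in CK, 212.5, 143.4 and 375.9 in D and 127.1, 284.2 and 412.5 in D + F. Both droughted groups were far above CK and overlapped each other, with rises of 76.6-fold and 86.2-fold (adjusted p = 0.000186 and 0.000805). Novel00500, of 1879 bases, was already expressed in CK, at 12.2, 12.5 and 11.5 FPKM. It reached 176, 109 and 145.9 FPKM in D and 78.3, 217.4 and 259.6 in D + F, 11.9-fold and 15.3-fold above CK (adjusted p = 0.000106 and 0.00313). The droughted groups overlapped, and the difference between them was 0.22 ± 0.45 on the log2 scale.

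**Figure D3:**
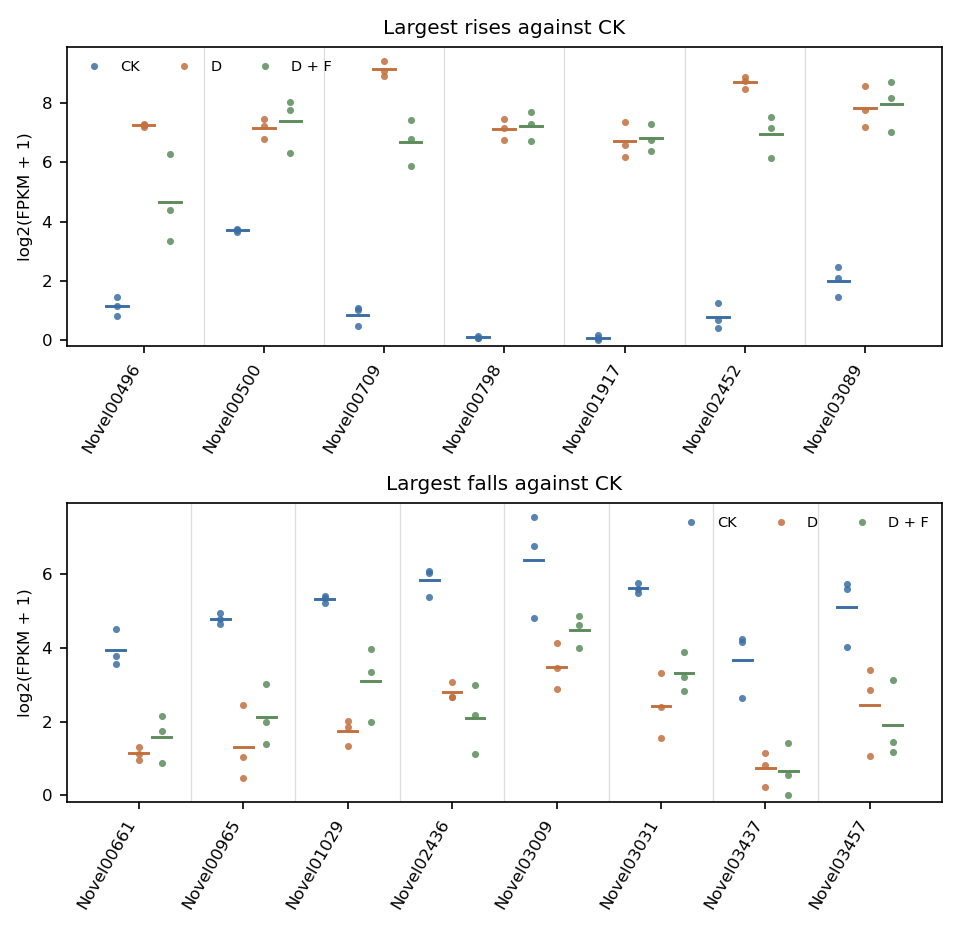
Log2(FPKM + 1) in each library for the 7 loci with the largest rises against CK (top) and the 8 with the largest falls (bottom). Points are libraries and bars are group means of 3, and D + F lay between CK and D for Novel00496, Novel00709 and Novel02452 but overlapped D for the other 4 rises.

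The 6 largest falls in D were -3.60 to -2.90 on the log2(FPKM + 1) scale, against 5.81 to 8.26 for the 6 largest rises. Novel01029, of 533 bases, had 36.2, 40.4 and 41.8 FPKM in CK, 1.51, 2.61 and 3.05 in D and 14.8, 2.95 and 9.17 in D + F. It was 16.5-fold lower in D (adjusted p = 9.94e-05) and 4.40-fold lower in D + F than in CK (adjusted p = 0.0177, lost without the filter, CK 2 or D + F 3). The D + F 2 library lay among the D libraries and the other 2 lay between the groups.

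Novel00965 and Novel03031 are paired with the same Brassica rapa gene in the study's pathway files. Their reads may come from near-identical copies, so that their values are not taken as independent. Novel00965 had 26.5, 24.4 and 30.1 FPKM in CK, 1.06, 4.42 and 0.375 in D and 7.11, 2.99 and 1.63 in D + F. Novel03031 had 47.7, 43.8 and 53.5 FPKM in CK, 4.255, 9.07 and 1.90 in D and 14.0, 8.31 and 6.14 in D + F. Both fell without overlap with CK, 13.8-fold and 9.51-fold in D (adjusted p = 0.002 and 0.00181) and 6.91-fold and 5.10-fold in D + F (adjusted p = 0.00541 and 0.00345). The droughted groups overlapped at both loci, and within each of them the order of the 3 libraries was the same at both.

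Novel02436, of 2510 bases, had 41.0, 65.1 and 67.1 FPKM in CK, 5.32, 7.49 and 5.36 in D and 7.02, 3.53 and 1.17 in D + F. It was lower in both droughted groups, by 9.53-fold and 14.8-fold (adjusted p = 0.000302 and 0.00367), which overlapped. Novel03437 had 5.18, 16.9 and 17.8 FPKM in CK, 0.762, 0.174 and 1.20 in D and 0, 0.462 and 1.66 in D + F, a fall of 18.7-fold and of 18.8-fold (adjusted p = 0.00361 and 0.00922).

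Spread within CK was wide at the other named falls. Novel03009 had 188.5, 108.4 and 27.1 FPKM in CK, 6.33, 16.5 and 9.94 in D and 28.3, 23.7 and 14.9 in D + F. Its fall in D was 9.89-fold (adjusted p = 0.0167, lost without the filter, CK 2, D 1 or D 3), and D + F overlapped CK. Novel03457 had 15.3, 48.0 and 52.2 FPKM in CK, 6.25, 9.58 and 1.08 in D and 7.70, 1.72 and 1.27 in D + F. It was 6.84-fold lower in D and 10.8-fold lower in D + F (adjusted p = 0.022 and 0.0145). The D vs. CK call was lost without the filter, CK 2 or CK 3, and the D + F vs. CK call without the filter, CK 2, D + F 2 or D + F 3. Novel00661 had 12.8, 10.9 and 21.7 FPKM in CK against 0.936 to 1.49 in D and 0.839 to 3.47 in D + F, with falls of 12.6-fold and 6.83-fold (adjusted p = 0.000563 and 0.00728).

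Some loci were at the floor of 3 reads in every library of CK or of D while expressed in the other group. At most 3 reads in every CK library and a mean of at least 2 FPKM in D were found for 15 loci (0.572%), and the reverse for 4 (0.152%). The Bna genes were not counted in this way, so that these counts cannot be set against them. Beside Novel00798 and Novel01917, the 15 included Novel01310 and Novel02801. All 4 were above 1 FPKM in droughted libraries alone, and passed the rule only through these. Novel01310 had 0.0751, 0.0748 and 0 FPKM in CK and 11.8, 8.93 and 11.9 in D, at least 47.1-fold higher (adjusted p = 5.45e-05). Novel02801 had 0 reads in the CK libraries, but its D libraries were at 0.114, 12.5 and 21.3 FPKM and its D + F libraries at 0, 0 and 17.3, so that libraries stood far apart within D and within D + F, and no test was passed (adjusted p = 0.0696 in D vs. CK).

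The 4 loci at the floor in D were Novel01102, Novel00641, Novel02098 and Novel03551. All but Novel01102 were above 1 FPKM in CK libraries alone. They thus passed the rule only through the group where they were high. Novel02098 had 3.77, 4.57 and 5.55 FPKM in CK and 0 reads in all 6 droughted libraries, at least 24.3-fold lower in D and at least 24.8-fold lower in D + F (adjusted p = 0.00023 and 0.000765). Novel00641 had 4.79, 5.45 and 3.48 FPKM in CK and 0 to 0.142 FPKM in the droughted libraries, at least 28.9-fold lower in D (adjusted p = 0.00034). Novel03551 had 6.21, 4.43 and 3.69 FPKM in CK, 0 to 0.188 in D and 0.192 to 0.955 in D + F, at least 17.0-fold lower in D (adjusted p = 0.000502). Novel01102 had 14.3, 4.91 and 0.287 FPKM in CK and 6.07, 0.302 and 1.10 in D + F, and did not pass (adjusted p = 0.0725).

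The study's pathway files list 21 such loci under metabolic pathways, 20 of which passed the rule, while Novel01161, listed under ABC transporters, did not (of the other 6 genes tested of that list, 0 were called higher and 6 lower in D vs. CK). They were listed because they were differentially expressed in these same libraries, so that their calls are not independent evidence. In D vs. CK 6 of the 20 were called higher and 12 lower, in D + F vs. CK 4 higher and 7 lower, and in D + F vs. D 2 higher and 0 lower. Novel00369 and Novel01903 were above 1 FPKM in CK libraries alone, and Novel00394, Novel01181 and Novel01462 in droughted libraries alone. They thus passed the rule only through the groups where they were high. Where a list was held whole, the counts of its other genes that were called are given, with the same limit.

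Lipid pathways held loci that fell. Novel00965 and Novel03031, described above, are listed under glycerolipid and glycerophospholipid metabolism, which build and remodel membrane and storage lipids. Of the other 22 genes tested of the glycerolipid list, 5 were called higher and 15 lower in D + F vs. CK, and of the 25 of the glycerophospholipid list 8 higher and 15 lower. Novel01367, listed under linoleic acid metabolism, had 8.71, 7.65 and 10.8 FPKM in CK, 2.06, 2.78 and 0.0653 in D and 4.88, 2.40 and 0.599 in D + F. It was 5.55-fold lower in D (adjusted p = 0.012), without overlap, and of the other 15 genes tested of that list 13 were called lower and 1 higher.

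A lipid and a signalling locus were less abundant. Novel01181, under biosynthesis of unsaturated fatty acids, had 0.103 to 0.308 FPKM in CK, 1.09 to 1.29 in D and 0.863 to 1.10 in D + F, 5.82-fold higher in D (adjusted p = 0.00828). Novel03207, under phosphatidylinositol signalling and inositol phosphate metabolism, had 2.22 to 2.502 FPKM in CK, 0.886 to 1.59 in D and 0.486 to 1.57 in D + F. It was 2.01-fold lower in D (adjusted p = 0.0289), a call lost under quantile normalization, with the replicate block and without CK 2, D 1 or D 3. D + F vs. CK, the comparison for which the study lists it, did not pass here (adjusted p = 0.0521). Of the other 18 genes tested of the inositol phosphate list, 4 were called higher and 11 lower in D + F vs. CK.

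Amino acid pathways held loci of both directions. Novel00483 is listed under tryptophan, histidine, beta-alanine, pyruvate and ascorbate metabolism and several more. Its FPKM was 2.42, 4.58 and 4.91 in CK, 1.23, 0.594 and 0.989 in D and 0.899, 1.35 and 0.858 in D + F. It was lower in both droughted groups, by 4.24-fold and 3.84-fold (adjusted p = 0.008 and 0.0158), which overlapped each other and not CK. The D + F vs. CK call was lost without CK 2 or D + F 3.

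The whole lists that hold Novel00483 had other genes of both directions. In D vs. CK 3 of 15 histidine genes tested were called higher and 9 lower, and 6 of 24 ascorbate and aldarate genes higher and 16 lower. In D + F vs. CK the higher and lower calls were 8 and 6 of 16 tryptophan genes, 1 and 5 of 7 histidine genes, 5 and 8 of 14 genes of valine, leucine and isoleucine degradation, 3 and 6 of 10 beta-alanine genes and 0 and 6 of 9 ascorbate and aldarate genes. The tryptophan list was the one of these with more higher than lower calls.

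Also under tryptophan metabolism, Novel01269 had 9.61, 6.62 and 11.6 FPKM in CK, 62.0, 40.7 and 38.2 in D and 38.3, 18.9 and 7.15 in D + F. It was 5.06-fold higher in D (adjusted p = 0.00126), and the D + F libraries ran from the CK to the D range. Novel01153 had 48.8, 41.55 and 32.0 FPKM in CK, 16.5, 21.3 and 7.92 in D and 27.1, 10.6 and 4.20 in D + F, 2.67-fold lower in D (adjusted p = 0.018, lost without the filter, without CK 2 and in 1 fit of all 9 libraries). D + F vs. CK did not pass at either locus (adjusted p = 0.279 and 0.063). The 2 loci of the same pathway thus changed in opposite directions in D.

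Novel00345, Novel01201 and Novel01903 are listed under cyanoamino acid metabolism. Novel00345 had 1.66 to 3.58 FPKM in CK, 7.50 to 11.8 in D and 3.31 to 9.30 in D + F, and rose 3.53-fold in D (adjusted p = 0.00498). Novel01201 fell 3.22-fold (adjusted p = 0.0118), from 13.8 to 27.9 FPKM in CK to 3.93 to 9.24 in D, with 6.81 to 14.7 in D + F. Novel01903 fell 8.34-fold (adjusted p = 0.00416), from 1.35 to 2.30 FPKM in CK to 0.154 to 0.368 in D, with 0.302 to 0.793 in D + F.

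A further 3 amino acid and vitamin loci moved in D. Novel00972, under glycine, serine and threonine metabolism, had 1.11, 5.05 and 6.33 FPKM in CK, 19.3, 7.23 and 17.4 in D and 6.69, 16.5 and 15.1 in D + F. It was 3.52-fold higher in D than in CK (adjusted p = 0.0472). That call was lost without the filter, with a pseudocount of 0.1, with the replicate block and without CK 1, CK 2, D 1 or D 3. For Novel00972 D + F vs. CK, the comparison for which the study lists it, did not pass here (adjusted p = 0.0831). Of the other 26 genes tested of its list, 12 were called higher and 11 lower in D + F vs. CK. Novel00367, under cysteine and methionine metabolism, fell 2.24-fold (adjusted p = 0.00492), from 26.5 to 38.1 FPKM in CK to 12.3 to 15.8 in D, with 13.9 to 31.9 in D + F. Novel01820, under vitamin B6 metabolism, fell 2.05-fold in D (adjusted p = 0.0189, lost without CK 2, D 1 or D 2), from 6.33 to 9.11 FPKM in CK to 2.79 to 4.95 in D and 2.93 to 4.91 in D + F. Of the other 5 genes of its list 1 was called higher and 4 lower in D + F vs. CK.

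Sugar pathways held loci near the floor. Novel00369, under pentose and glucuronate interconversions, had 2.35, 1.01 and 1.35 FPKM in CK and at most 3 reads in every droughted library, at least 12.8-fold lower in D and at least 13.0-fold lower in D + F (adjusted p = 0.00715 and 0.013, the latter lost without D + F 2). Novel01462, under amino sugar and nucleotide sugar metabolism, was at the floor in CK and had 4.73, 5.37 and 2.68 FPKM in D and 1.08, 1.29 and 1.08 in D + F. It was at least 22.5-fold higher in D than in CK (adjusted p = 0.000905), and the D + F libraries lay between the other groups (adjusted p = 0.0533 in D + F vs. D). Novel03006, under starch and sucrose metabolism, was called in D + F vs. CK alone, 2.18-fold higher (adjusted p = 0.0351), with 3.00 to 4.62 FPKM in CK, 1.999 to 5.215 in D and 5.89 to 10.6 in D + F. Without the filter, CK 1, CK 2, D + F 2 or D + F 3 it was not called. Novel00394, listed under metabolic pathways only, rose 6.69-fold in D and 9.998-fold in D + F (adjusted p = 0.00212 and 0.0111), from 0.343 to 0.671 FPKM in CK to 2.65 to 4.61 in D and 2.35 to 7.06 in D + F. The D + F vs. CK call was lost without CK 2 or D + F 2.

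In D + F vs. CK the test called 330 of the 2624 loci (12.6%), against 17.1% of all rows tested. Of them 190 were higher in D + F (7.24%, against 8.90% of all rows) and 140 lower (5.34%, against 8.16% of all rows). The count dropped to 122 when CK 2 was left out (4.65%, against 6.47% of the Bna genes). It was 115 without D + F 2 (4.38%, against 6.27%) and 152 without D + F 3 (5.79%, against 8.42%). Both of these comparisons rest on the same CK libraries. Side by side, 143 of the 260 loci higher in D (55% of them, against 58.8% of the Bna genes higher in D) were also called against CK under D + F. Of the 323 lower in D it was 132 (40.9%, against 38.4% of such Bna genes). Of the 330 loci called in D + F, 55 were not called in D (16.7%, against 13.1% of such Bna genes). Called in none of the 3 comparisons were 1982 loci (75.5%), against 65.0% of the Bna genes.

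How far the drought-changed loci stood back toward CK in D + F was described by the share of the D vs. CK change that was missing in D + F, on the log2(FPKM + 1) scale, where 0 is the D level and 1 the CK level. Because the same D libraries chose these loci and set the share, it carries no test. Over the 583 loci its median was 0.229, with 0.309, 0.224 and 0.137 in the 3 D + F libraries, against 0.282 over the 15626 Bna genes called in the same comparison and 0.284 when those were weighted to the loci's mean FPKM. This gap depended on the setting. The loci had 0.230 against 0.255 for Bna genes under median-of-ratios scaling and 0.227 against 0.239 under quantile normalization. Without D + F 3 the values were 0.285 and 0.284. The loci lowered by drought had a median of 0.312, against 0.361 for such Bna genes (0.340 weighted). The median level of these loci was 6.54 FPKM in CK, 2.58 in D and 3.57 under D + F. The loci raised by drought had a median of 0.149, against 0.134 for such Bna genes (0.175 weighted). The median level of these loci was 1.89, 6.12 and 6.27 FPKM in the same order.

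For the raised loci the share depended on the library and on the scaling. It was 0.294 in D + F 1, 0.128 in D + F 2 and -0.07 in D + F 3. Under median-of-ratios scaling the median was 0.238 for the raised and 0.222 for the lowered loci, against 0.242 and 0.266 for such Bna genes. In D + F vs. D the same scaling moved the median of all rows tested from 0.14 to 0.01 on the log2 scale.

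Between D + F and D the test called 13 loci (0.495%), against 1.15% of all rows. Of these 10 were higher in D + F (0.381%, against 0.808% of all rows) and 3 lower (0.114%, against 0.338% of all rows). At an unadjusted p below 0.05 there were 297 loci (11.3%, against 18.0% of the Bna genes). The calls depended on the filter, on single libraries and, at some loci, on the scaling and method. Without the filter there were 0, and 0.0302% of the Bna genes were called. Leaving out a D library gave 1 call (D 1, with 0 of the 13), 0 calls (D 2) or 3 calls (D 3, with 2 of the 13). Leaving out a D + F library gave 16 calls (D + F 1, with 8 of the 13) or 0 calls (D + F 2, and also D + F 3). The share of Bna genes called, 1.18% in the main fit, was 0.00208% without D 1, 0.0229% without D 2 and 0.367% without D 3. It was 1.17% without D + F 1, 0% without D + F 2 and 0.0625% without D + F 3. Each of the 9 loci named here lost its call without the filter and without some of these libraries. Novel01173 and Novel01193 also lost it under median-of-ratios scaling and with voom on solved reads. Novel00709 lost it under quantile normalization, and Novel00283 and Novel01193 with a pseudocount of 0.1. In 1 fit of all 9 libraries Novel00069, Novel00108, Novel01193 and Novel01375 lost it. Of the 13, 8 were also called in D vs. CK, a comparison that shares the D libraries (61.5%, against 74.96% of the Bna genes called in D + F vs. D).

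**Figure D4:**
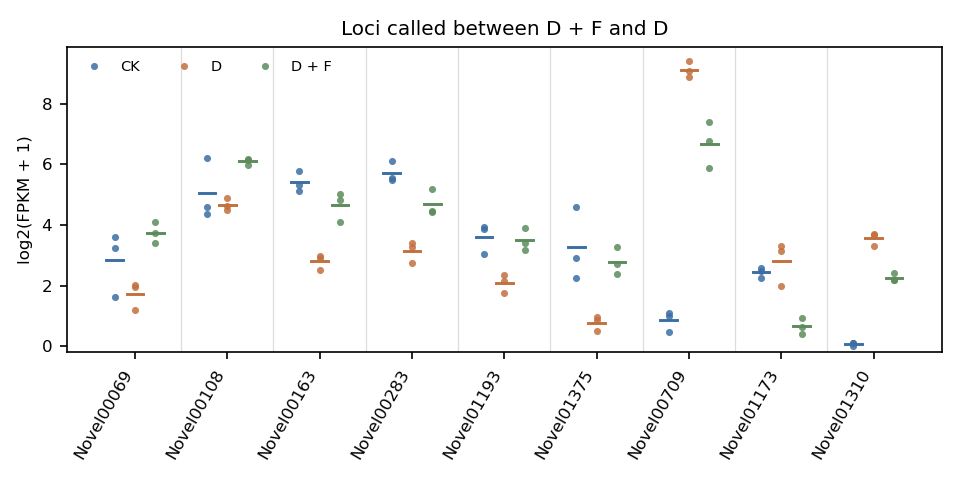
Log2(FPKM + 1) in each library for 9 loci called between D + F and D, the 6 rises on the left and the 3 falls on the right. Points are libraries and bars are group means of 3, and the D and D + F libraries did not overlap at any of the 9.

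Of the 6 rises, 4 were loci that drought had lowered. Novel01375 had 3.82, 6.51 and 23.3 FPKM in CK, 0.843, 0.4105 and 0.945 in D and 5.57, 4.235 and 8.76 in D + F. It was 15.3-fold lower in D than in CK (adjusted p = 0.0133) and 8.44-fold higher in D + F than in D (adjusted p = 0.0266), within the range of CK. Novel00163 had 34.1, 39.2 and 53.9 FPKM in CK, 6.54, 4.77 and 6.81 in D and 27.2, 16.4 and 31.6 in D + F. It rose 4.15-fold in D + F vs. D (adjusted p = 0.0337) and remained below every CK library.

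Novel00283 had 46.2, 43.9 and 67.5 FPKM in CK, 8.66, 5.78 and 9.62 in D and 21.3, 20.6 and 35.4 in D + F, 3.22-fold higher than D (adjusted p = 0.0493) and 2.04-fold lower than CK (adjusted p = 0.0397, lost without the filter and without any 1 of CK 1, CK 2, CK 3, D + F 1 or D + F 2). Novel01193, listed under inositol phosphate metabolism and phosphatidylinositol signalling, had 14.3, 13.7 and 7.28 FPKM in CK, 2.39, 4.16 and 3.42 in D and 8.02, 9.70 and 13.9 in D + F. It was 3.17-fold higher in D + F than in D (adjusted p = 0.0495), and its D + F libraries overlapped CK.

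The other 2 rises were not called in D vs. CK. Novel00069 had 11.3, 8.57 and 2.08 FPKM in CK, 1.32, 2.88 and 3.07 in D and 9.65, 12.3 and 16.0 in D + F, 5.22-fold higher than D (adjusted p = 0.0307). Novel00108, listed under flavonoid biosynthesis, which makes pigments and antioxidants, had 72.8, 19.7 and 23.3 FPKM in CK, 21.7, 23.6 and 28.8 in D and 70.9, 70.1 and 62.5 in D + F. It was 2.74-fold higher in D + F than in D (adjusted p = 0.0187), while CK 1 stood at the D + F level and the other CK libraries at the D level. Of the other 16 genes of that list, chosen by the study on these libraries, 13 were called higher in D + F and 0 lower. Of the other 15 genes tested of the amino sugar list that holds Novel01462, 7 were called higher and 3 lower.

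The 3 falls were Novel00709, Novel01310 and Novel01173. Novel00709, the locus with the largest rise in D on the log2(FPKM + 1) scale, was 5.05-fold lower in D + F than in D (adjusted p = 0.0409) and still 131-fold above CK. Novel01310 had 3.58, 4.29 and 3.56 FPKM in D + F, 2.85-fold below D (adjusted p = 0.0235) and at least 16.5-fold above CK. Novel01173 had 5.02, 4.60 and 3.81 FPKM in CK, 7.87, 8.915 and 2.99 in D and 0.928, 0.569 and 0.323 in D + F. It was thus lower in D + F than in either other group, 10.9-fold below D (adjusted p = 0.0474) and 7.38-fold below CK (adjusted p = 0.00299). For Novel02452 and Novel00496 the D + F libraries were also all below the D libraries, but the differences of -1.75 ± 0.34 and -2.57 ± 0.65 did not pass (adjusted p = 0.0702 and 0.121).

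Set against Bna genes of equal mean FPKM, the loci were called less often in each comparison. Bna genes were put into bins 1 log2 unit of mean FPKM wide, and their shares were weighted by the number of loci in each bin. In D vs. CK 22.2% of the loci and 29.8% of such Bna genes were called. The gap was on the lower side, with 12.3% against 19.6%, while the higher calls were 9.91% against 10.2%. In D + F vs. CK the shares were 12.6% and 15.7%, again with a gap among lower calls (5.34% against 8.45%) and little among higher ones (7.24% against 7.28%). In D + F vs. D they were 0.495% and 1.13%, and the former rests on 13 loci. Without D 1 the order was turned in that comparison, with 0.0381% of the loci against 0.00208% of all Bna genes tested. These shares are a description with no test. The split by direction is for FPKM as deposited, and Bna shares by direction were not computed with other scalings. In D vs. CK 370 loci were called higher and 274 lower with median-of-ratios scaling. With quantile normalization they were 404 and 256. Bins 0.5 log2 units wide gave 29.7%, 15.7% and 1.12% for the Bna genes.

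**Figure D5:**
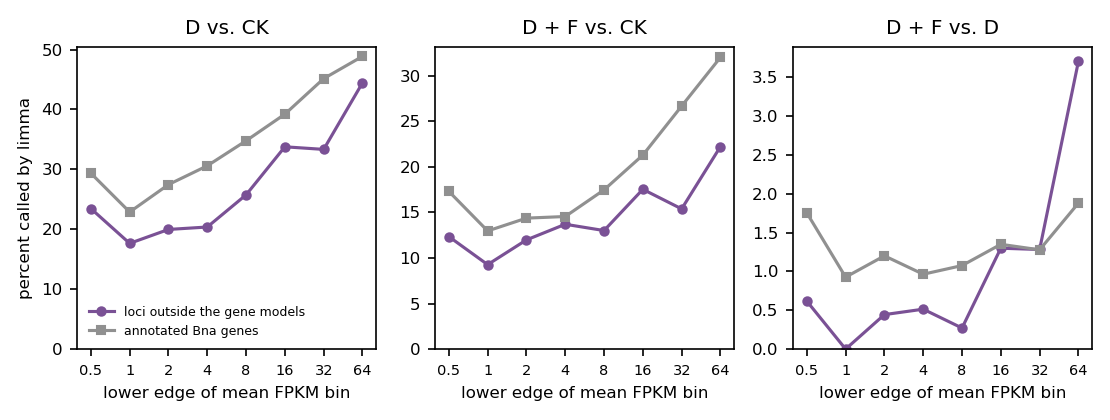
Percent of rows called by limma in each bin of mean FPKM that holds at least 20 of the loci, for the loci outside the gene models and the annotated Bna genes, in the 3 comparisons (each panel has its own vertical scale). In D vs. CK the loci lay below the Bna genes in every bin shown.

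The same order held through the range of levels in D vs. CK. Between 1 and 2 FPKM 17.6% of the loci and 22.9% of the Bna genes were called, between 4 and 8 FPKM 20.4% and 30.6%, and between 32 and 64 FPKM 33.3% and 45.2%. Between 128 and 256 FPKM the order was turned, with 6 of 9 loci (66.7%) against 44.8%. Changes were smaller as well, with a mean absolute log2 fold change in D vs. CK of 0.516 for the loci and 0.583 for Bna genes of equal level. The spread within groups differed too. The mean SD of log2(FPKM + 1) among the 3 libraries was 0.275 for the loci and 0.243 for Bna genes of equal level in D, and 0.339 against 0.264 in D + F, but 0.293 against 0.308 in CK. Its part in the lower share of calls was not tested.

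Length was not ordered with the share called. Of the shortest 877 loci, up to 789 bases, 23.9% were called in D vs. CK, of the middle 873 19.2% and of the longest 874, from 1222 bases, 23.5%. The median reads per library in these classes were 52.8, 82.4 and 153.9.

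A few loci held nearly the same level throughout. Novel00242, of 780 bases and the 16th most abundant, had 108.7 to 122.4 FPKM in CK, 98.3 to 117.1 in D and 108 to 131.5 in D + F. Novel00306 had 9.99 to 13.7 FPKM over the 9 libraries, Novel01192 11.3 to 14.7, Novel01819 10.4 to 13.8 and Novel02239 11.2 to 15.2. Among loci with a mean of at least 10 FPKM these had the smallest range, 0.381 to 0.452 log2 units, and none was called. At Novel01819 and Novel02239 all CK libraries were nonetheless above all D libraries (adjusted p = 0.245 and 0.225).

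The threshold of 1 FPKM in 3 libraries divided loci with nearly equal values. The third-highest FPKM was 1.0009 in Novel02880, 1.0009 in Novel00010 and 1.0017 in Novel01496, which were kept. It was 0.9998 in Novel01546, 0.9964 in Novel00101 and 0.9959 in Novel03408, which were left out.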

How the data were processed

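Leaf RNA was sequenced in 9 libraries, 3 each of CK, D and D + F. The authors deposited 1 table of FPKM values per library, normalized for transcript length and library total. The study's methods name TopHat 2.0.12, Bowtie 2.2.3 and HTSeq 0.6.1, whereas the submitters' processing notes name Bowtie 0.12.2 and mm8, a mouse build. Counting by strand was not given in the sources used here.

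From the FPKM, log2(FPKM + 1) was tested with limma 3.58.1 (R 4.3.3, mean-variance trend) on the 6 libraries of each of 3 comparisons, over 50626 rows above 1 FPKM in at least 3 libraries, with Benjamini-Hochberg adjustment. A fold is a ratio of mean FPKM, and log2 fold changes understate changes of low loci. Whole reads, lengths and totals were solved from the digits of the deposited FPKM (Python 3.11.15, numpy 2.4.6). Where no library of a group was above 3 reads, a fold was computed against 3 reads per library and given as a bound. Limits from counts cover counting error only. The procedures were tested on simulated data.

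Loci named were the 10 of highest mean, the 6 largest rises and falls per comparison without overlap and with a mean of at least 5 FPKM in the higher group (2 FPKM in D + F vs. D), those in the study's pathway files, up to 4 per direction at the floor, the 5 of smallest range and those next to the threshold. Members and lists were chosen with earlier results of these data known. Alternatives were the pseudocount, filter, scaling, libraries in the fit, replicate block, trend, solved reads with voom, bin width and each library left out.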

Additional observations from a re-analysis of the deposited data

How the results depend on the processing

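With 3 libraries a group, single libraries set the counts of calls. Leaving out each in turn gave 363 to 627 loci for D vs. CK, 115 to 345 loci for D + F vs. CK, and for D + F vs. D 0 to 16. The share of Bna genes called in these fits was 20.1 to 34.9%, 6.27 to 19.3% and 0 to 1.17% in the same order. With a mean of at least 5 FPKM, which left 999 loci to test, the counts were 282, 164 and 8. Without a filter on low values they were 439, 183 and 0 (267 at an unadjusted p below 0.05 by limma), with 76352 rows in the adjustment. The share of summed FPKM on the loci without Novel01182 was 1.95% in CK and 1.84% in D. Over all rows tested, deviations of same-numbered libraries from their group means correlated from -0.291 to 0.306. Deviations within a group of 3 depend on each other, so that this range cannot decide whether replicate numbers pair the libraries. With the replicate block the counts for the 3 comparisons, in the same order, were 437, 437 and 0 (343 at an unadjusted p below 0.05 by limma), and the named calls lost were Novel00972 and Novel03207 in the first, Novel01181 in the second and all 9 in the third. With voom on solved reads they were 583, 329 and 10. The median return stayed between 0.186 and 0.285 in every setting run. Of the named loci, 34 of 40, 16 of 30 and 0 of 9 calls in these comparisons held in every alternative, and 0 reversed. Loci with few reads could not be judged below 3 reads, which is 0.115 to 0.137 FPKM at 1 kb.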

Other observations

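Single libraries departed from their group at a few loci, which were chosen after their values were seen. At most 3 reads in 1 library, with at least 5 FPKM in the other libraries of its group, were found for 5 loci in D 1, 1 in CK 3, 1 in D + F 1 and 0 in the other 6 libraries. These counts are out of 2624 loci. Among the 48002 Bna genes tested the same pattern was found 78 times in D 1, 28 times in CK 3 and 3 to 8 times in the other libraries.

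The loci in D 1 were Novel00002, Novel02147, Novel03066, Novel03155 and Novel03273. Novel03273 had 0 FPKM in D 1 and 14.8 to 22.1 FPKM in the other 8 libraries, and Novel03155 had 0 in D 1 and 7.01 to 22.9 elsewhere. Novel00002 had 0.0226 FPKM in D 1 and 8.23 to 10.1 elsewhere, and Novel03066 had 0.109 in D 1 and 3.16 to 8.26 elsewhere. Each of these 4 was thus expressed in every library but 1.

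Novel02147 went on and off across groups. It had 8.63, 5.79 and 0 FPKM in CK, 0.166, 16.3 and 22.5 in D and 0.172, 0 and 0 in D + F. The reverse pattern, at least 5 FPKM in 1 library and at most 3 reads in the others of its group, was found for Novel00229 in CK 3, Novel00238 in D + F 1, Novel00502 in D + F 2 and Novel02712 and Novel02801 in D + F 3. Novel00502 had 0, 0 and 3.72 FPKM in CK, 9.42, 13.1 and 8.99 in D and 0, 22.5 and 0 in D + F. Among the Bna genes this pattern was found 22 times in D + F 3 and 0 to 6 times in the other libraries. Without D 1, 411 loci were called in D vs. CK (15.7%, against 22.1% of the Bna genes).

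Of the 928 loci outside the gene models that did not pass the rule, 138 had 0 FPKM in all libraries. None of the 928 enters the comparisons above.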
